A study of Homo sapiens with 12 samples.

Results

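The erythroid transcription factors described here are 10 genes, GATA1, KLF1, TAL1, LMO2, GFI1B, NFE2, ZFPM1, BCL11A, MYB and LDB1, taken by symbol from a table of RNA sequencing read counts for 58395 genes. All 10 were in the table and all 10 were tested, among 18286 genes with enough reads. Reads were counted in 12 libraries, 4 from each of 3 human leukemia cell lines. Edit-3 (K/VP.5/edit-3) is 1 clone from K/VP.5 cells that were transfected with Cas9 protein, its guide RNA and an oligonucleotide template in order to strengthen a 5′ splice site of TOP2A, the gene of topoisomerase IIα. K/VP.5 is a clonal, etoposide-resistant subline of K562, and etoposide kills dividing cells by holding topoisomerase II to broken DNA. K562 is the parental line, from a chronic myeloid leukemia in blast crisis with the BCR-ABL1 fusion, so every line shares its genome as a starting point. The labels describe 1 culture regime for all lines, DMEM with serum and 0.5 µM etoposide every other week, and do not say separately whether K562 received the drug. A free-text label that names all 12 libraries as parental conflicts with their source names and was not used. Separate cultures are not mentioned for the 4 replicates of a line, so p-values measure only how these libraries vary, and that spread may be technical.

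Red cell precursors are specified by a small set of DNA-binding proteins and their cofactors. GATA1 binds GATA motifs and works with its cofactor ZFPM1 (FOG1), and a complex that joins TAL1 on an E-box to GATA1 through the bridging proteins LMO2 and LDB1 brings distant enhancers to globin and other erythroid genes. KLF1 acts through CACCC boxes, NFE2 through the NF-E2 site with a small MAF partner, GFI1B and BCL11A repress, and MYB keeps progenitors dividing. K562 cells stand at an early erythroid and megakaryocytic stage and make embryonic and fetal globins, which is why these factors are commonly studied in them.

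Promoter windows, from 250 bases before to 50 bases after an annotated start, were found in RefSeq (GRCh38.p14) for 8 of the 10 genes, in 14 windows, and those of LMO2 and NFE2 were not used here. The GATA motif was searched on both strands in 4 forms, as AGATAA or with a final G as AGATAG, and with a first T as TGATAA or likewise TGATAG. They occurred in 4 of the 14 windows, a share near the 25% of all 35116 RefSeq promoter windows. These 4 windows belong to 3 of the 8 genes, KLF1, TAL1 and GFI1B. A window of each of the 3 genes is shown because these genes hold the motif that GATA1 binds. Sequences run 5′ to 3′ along the gene's strand, with the GATA motif in capitals.
KLF1, chr19:12887152-12887451, minus strand: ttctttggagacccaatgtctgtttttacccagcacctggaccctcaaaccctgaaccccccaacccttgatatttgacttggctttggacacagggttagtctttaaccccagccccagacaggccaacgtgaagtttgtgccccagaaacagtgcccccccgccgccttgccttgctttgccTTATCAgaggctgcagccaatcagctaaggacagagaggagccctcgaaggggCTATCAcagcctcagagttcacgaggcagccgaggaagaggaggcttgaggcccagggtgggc
TAL1 first start, chr1:47232286-47232585, minus strand: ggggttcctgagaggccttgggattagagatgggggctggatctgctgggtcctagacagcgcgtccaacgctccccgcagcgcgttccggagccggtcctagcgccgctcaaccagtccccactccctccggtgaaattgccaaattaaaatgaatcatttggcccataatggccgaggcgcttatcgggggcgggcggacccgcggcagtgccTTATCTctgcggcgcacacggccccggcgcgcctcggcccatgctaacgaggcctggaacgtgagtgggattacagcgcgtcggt
GFI1B second start, chr9:132978444-132978743, plus strand: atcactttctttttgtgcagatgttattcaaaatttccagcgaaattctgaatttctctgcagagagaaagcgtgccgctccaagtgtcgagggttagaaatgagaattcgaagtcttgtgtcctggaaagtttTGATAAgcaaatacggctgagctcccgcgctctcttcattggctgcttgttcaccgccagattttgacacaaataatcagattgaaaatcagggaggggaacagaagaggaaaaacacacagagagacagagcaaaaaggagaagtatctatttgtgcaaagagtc
In the KLF1 window the motif lay on the opposite strand at -66 and -13 from the start, in the TAL1 window on the opposite strand at -35, and in the GFI1B window on the gene's own strand at -116. A further match lay at +4 of the first GFI1B start. The CACCC box, searched as CCNCNCCC on both strands, was found in 10 of the 14 windows (56.2% of all windows). The E-box CAGATG was found in 2 windows (14.7% of all), both of GFI1B, the MYB motif AACNG in 8 (77.2%) and the NF-E2 core TGAGTCA in none (4.95%). Matches of different motifs were allowed to overlap, and a match only says that these letters are present.

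**Figure D1:**
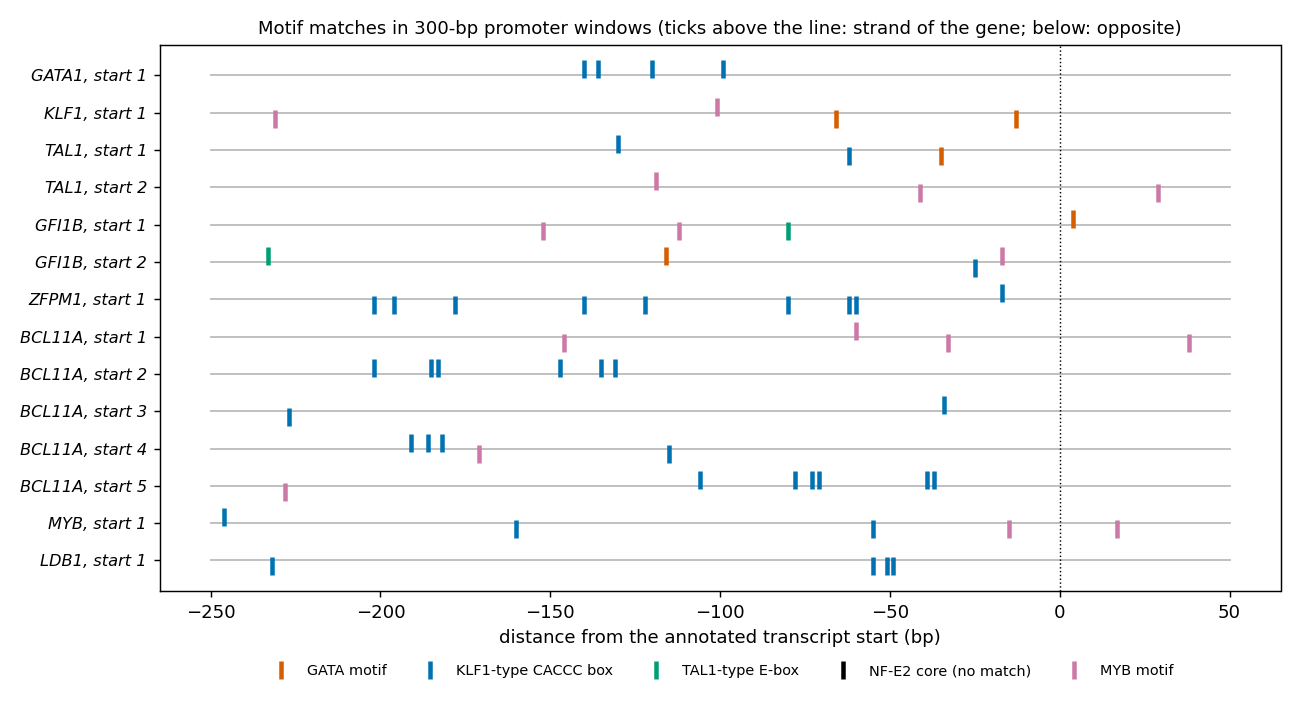
Positions of motif matches in the 14 promoter windows of 8 genes, as distance in bases from the annotated start (x axis), 1 row per window, with 1 colour per motif and ticks above the line for the gene's strand, below it for the opposite strand. GATA matches are seen in 4 windows only, those of KLF1, the first start of TAL1 and both starts of GFI1B.

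Each library held 25.3 M to 37.1 M reads, and mitochondrial genes took 0.712% to 1.22% of them. The edited gene, TOP2A, averaged 416 ± 25.1 CPM in edit-3, 359 ± 14.5 in K/VP.5 and 519 ± 25.8 in K562 (SD, n = 4 each). CPM is a read count scaled to the TMM-adjusted size of the library, and a gene count cannot show how TOP2A was spliced. The 3 genes that K562 is known to have lost, CDKN2A, CDKN2B and MTAP, had at most 2 reads each in any line. Of 8 K562 identity genes, 1 averaged under 1 CPM in each line. The embryonic globin gene HBZ averaged 118, 83.3 and 115 CPM in edit-3, K/VP.5 and K562, whereas HBE1, also embryonic, averaged 0.331, 0.252 and 0.708 CPM. Of the markers of other blood cells, the megakaryocyte and platelet list summed to 43.0 to 73.4 CPM in the edit-3 libraries, 26.3 to 28.6 in K/VP.5 and 30.7 to 50.8 in K562, with 4, 5 and 4 of its 17 genes at 0 reads. In edit-3, K/VP.5 and K562, 9, 10 and 12 of the 17 genes averaged under 1 CPM. Among these, PF4 and PPBP averaged at most 0.05 CPM in any line. Others of the list were read higher: GP6 averaged 20.3, 2.67 and 13.7 CPM and ITGA2B 13.8, 1.60 and 0.934 CPM in edit-3, K/VP.5 and K562. The granulocyte and monocyte list (15 genes) summed to 34 to 55.1, 36.1 to 38.9 and 35 to 56.7 CPM in edit-3, K/VP.5 and K562, mostly from CD33, with MPO averaging 0.18 CPM or less in each line and 0.604 CPM in its highest library, of K562. The lymphoid list (13 genes) summed to 56.8 to 94.6, 42.3 to 56.5 and 67.3 to 130 CPM, mostly from CD3D and TCF7, with MS4A1 at 0. Their part in the results below was not tested. In bulk RNA, fewer cells that express a gene and less of its RNA per cell cannot be told apart.

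Apart from BCL11A, the factors were read at 39.5 CPM or more in every library, and BCL11A stood below 1 CPM throughout. Per kilobase of exon (RPKM), GATA1 was the highest of the set in each line, at 132 ± 7.34 in edit-3, 130 ± 8.74 in K/VP.5 and 185 ± 22.5 in K562 (SD, n = 4 each). KLF1 came next in edit-3 (97.4 ± 21.1 RPKM) and K/VP.5 (109 ± 10.1), whereas in K562 NFE2 did (145 ± 18.8). The mean ± SD ranges of KLF1, NFE2, MYB and LDB1 overlapped from neighbour to neighbour in edit-3, as did those of LMO2 and TAL1 and of GFI1B and ZFPM1. In K/VP.5 they overlapped between LDB1 and LMO2 and between GFI1B and ZFPM1, and in K562 along GATA1, NFE2, KLF1 and LDB1, between LMO2 and MYB, and along TAL1, ZFPM1 and GFI1B. LMO2 stood beside TAL1 in edit-3, at 33.6 ± 2.24 RPKM, and beside MYB in K562, at 67.6 ± 6.53. GFI1B and ZFPM1 were the lowest apart from BCL11A, at 13 and 12.1 RPKM in edit-3, 9.66 and 7.83 in K/VP.5 and 13.2 and 14.7 in K562. By mean CPM, TAL1 was highest in edit-3, BCL11A in K/VP.5 and the other factors in K562. GATA1, GFI1B, NFE2, ZFPM1 and MYB were lowest in K/VP.5, KLF1, LMO2 and LDB1 in edit-3, and TAL1 and BCL11A in K562. How often each line is highest or lowest over all genes was not computed, so this describes the 10 factors only.

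**Figure D2:**
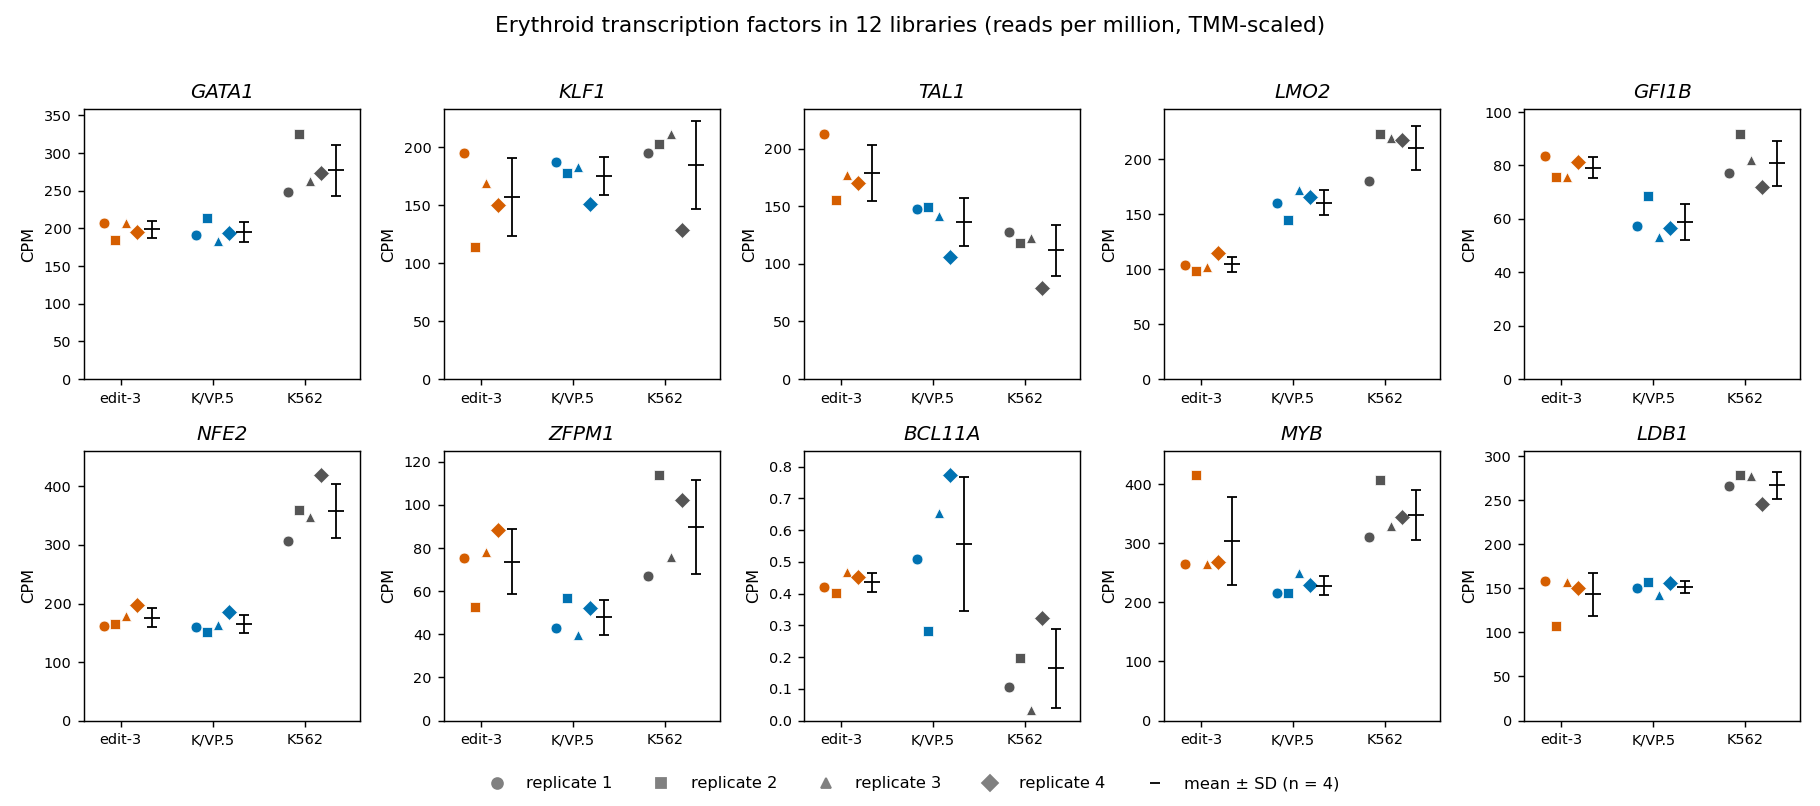
CPM of each of the 10 factors (y axes) in every library, by line (x axis: edit-3, K/VP.5, K562), with a marker for each of the 4 libraries and a bar for the mean ± SD. K562 libraries lie above the others for NFE2 and LDB1, edit-3 libraries lie below the others for LMO2, and BCL11A stays under 1 CPM in each line.

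K/VP.5 was set against K562 to see how the resistant subline differs from its parent. Most of the erythroid factors were lower in K/VP.5: NFE2 fell by 1.12 on the log2 scale, ZFPM1 by 0.91, LDB1 by 0.82, and MYB, GATA1, GFI1B and LMO2 by less. BCL11A, a repressor of fetal globin, was higher in K/VP.5 but stayed at well under 1 CPM, and KLF1 and TAL1 did not pass the test. The main fit left out the replicate number, and with that number as a block TAL1 passed (adjusted p = 0.031, edgeR). In edgeR's quasi-likelihood test across all genes, with an adjusted p under 0.05 as the threshold, 8 of the 10 factors changed, 1 higher and 7 lower, where 36.6% of all genes tested were called, 18.3% lower. The median log2 fold change over the 10 was -0.48, beside 0.0026 over all genes tested. The K/VP.5 and K562 libraries did not overlap for 7 of the 10, against 37.4% of all genes, and 2 of the 10 changed at least 2-fold, against 13.4% of all genes. BCL11A, whose low counts passed the filter through the lines where it is high, is 1 of the 8 called and 1 of the 2. Without it 7 of 9 were called and 1, NFE2, changed at least 2-fold.

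Edit-3 was set against K/VP.5 to see what changed in the edited clone. LMO2 was lower in edit-3, GFI1B higher, and ZFPM1 and MYB were higher by tests that did not hold up when single libraries were left out. GATA1, KLF1, NFE2, LDB1 and BCL11A did not pass the test, and neither did TAL1, whose edit-3 libraries all stood above those of K/VP.5. In all, 4 of the 10 changed, 3 higher and 1 lower, where 23.6% of all genes tested were called, 12.9% higher and 10.6% lower. The median over the 10 was 0.06, beside 0.0041 over all genes, 0 of the 10 changed at least 2-fold, against 8.32% of all genes, and the libraries did not overlap for 4 of the 10, against 26% of all genes. Leaving out 1 library at a time gave 2 to 5 changed factors, with 2 when K/VP.5 replicate 1, 3 or 4 was left out.

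Edit-3 against K562 shows how far the edited clone still stands from the original parent. LMO2, NFE2, LDB1 and GATA1 were lower in edit-3, and TAL1 and BCL11A were higher, so that 6 of the 10 changed, where 39.2% of all genes tested were called, 20.6% higher and 18.6% lower. The median over the 10 was -0.26, beside 0.0045 over all genes. The libraries did not overlap for 6 of the 10 (34% of all genes), and 3 changed at least 2-fold (15% of all genes). Without BCL11A, 5 of 9 were called, 5 did not overlap and 2, LMO2 and NFE2, changed at least 2-fold. The 3 comparisons share libraries pairwise, so their calls are not independent of each other. LMO2 was the only factor called in all 3 (8.06% of all genes tested), 7 were called in 2 (30.2%), TAL1 in 1 (14.7%) and KLF1 in 0 (47%).

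**Figure D3:**
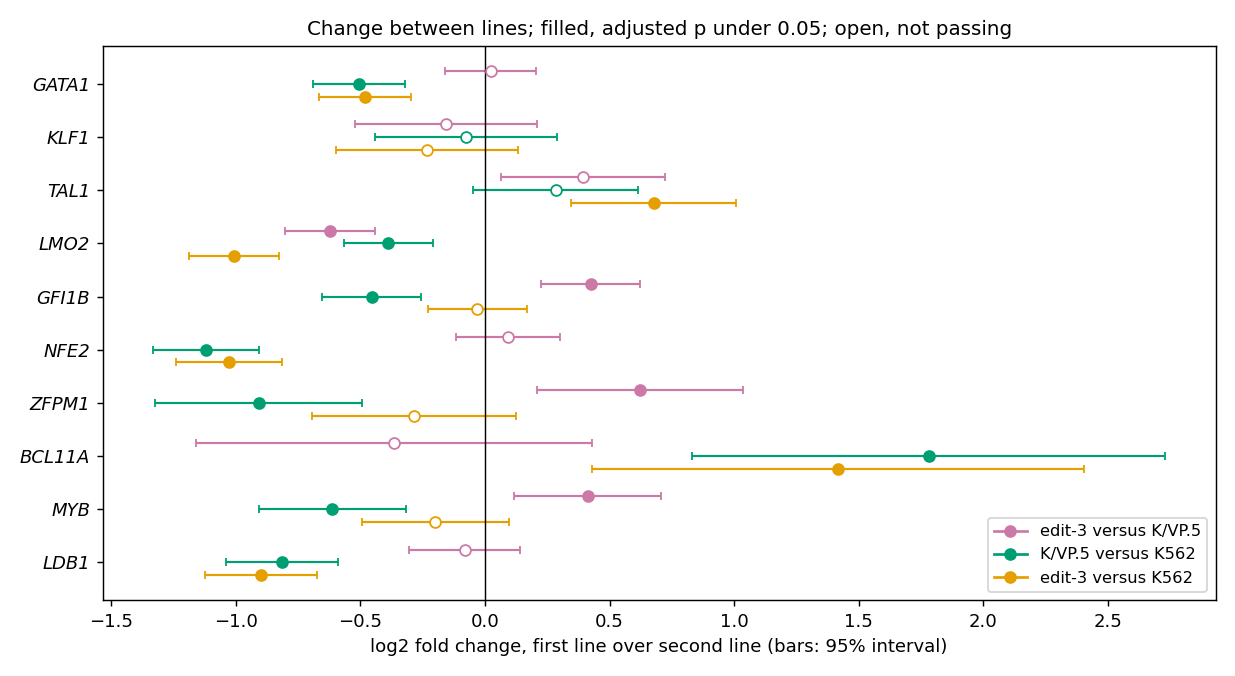
Log2 fold change of each factor (x axis) in edit-3 versus K/VP.5, K/VP.5 versus K562 and edit-3 versus K562, with 95% intervals from the edgeR fit and filled points where the adjusted p was under 0.05. NFE2 at -1.12 and LDB1 at -0.82 are far below 0 in K/VP.5 versus K562 and near 0 in edit-3 versus K/VP.5, whereas LMO2 is below 0 in all 3.

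GATA1, on the X chromosome (GRCh38, GENCODE v29: chrX:48786554-48794311, plus strand), is the zinc-finger protein without which erythroid cells do not mature. It had 207, 184, 208 and 195 CPM in edit-3 replicates 1 to 4, 191, 214, 184 and 193 in K/VP.5, and 248, 326, 263 and 273 in K562. Every K562 library lay above all others, while those of edit-3 and K/VP.5 overlapped. GATA1 was lower in K/VP.5 than in K562, with a log2 difference of -0.51 (SE 0.086, adjusted p = 0.00028, edgeR) and in edit-3 than in K562, with -0.48 (SE 0.086, adjusted p = 0.00037). Between edit-3 and K/VP.5 the difference was 0.02 (95% interval -0.16 to 0.21, adjusted p = 0.88). The 20 nearest measured genes on the chromosome had a median of -0.21 in K/VP.5 versus K562, 15 of them with the same sign as GATA1 and 7 of them called lower. In edit-3 versus K562 their median was -0.06, with 12 of the same sign and 6 called lower.

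ZFPM1 (chr16:88453317-88537016, plus strand) encodes the cofactor FOG1, which GATA1 needs at many of its targets. It had 75.3, 52.8, 78.1 and 88.4 CPM in edit-3, 42.9, 57.0, 39.5 and 52.0 in K/VP.5, and 67.1, 114, 75.9 and 102 in K562. K/VP.5 was the low line, with all 4 libraries below those of K562, and edit-3 replicate 2 alone fell inside the K/VP.5 range. ZFPM1 was lower in K/VP.5 than in K562 (log2 fold change -0.91, SE 0.19, adjusted p = 0.0022, edgeR). It was higher in edit-3 than in K/VP.5 (0.62, SE 0.19, adjusted p = 0.032), a call that was lost when any 1 of replicates 1, 3 and 4 of either line was left out (adjusted p up to 0.11) and without a filter on low counts (0.13). Edit-3 and K562 differed by -0.29 (95% interval -0.70 to 0.13, adjusted p = 0.26). Its 20 nearest measured genes went the other way in K/VP.5 versus K562, with a median of 0.59 and 3 of the same sign as ZFPM1, and in edit-3 versus K/VP.5 (median -0.51, 5 of the same sign). Within libraries, ZFPM1 had 0.370 ± 0.068 reads per GATA1 read in edit-3, 0.244 ± 0.028 in K/VP.5 and 0.321 ± 0.049 in K562 (SD, n = 4 each), where both genes keep their own length.

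GATA2, the relative that GATA1 replaces on chromatin as erythroid cells mature, averaged 378 ± 72.5 CPM in edit-3, 515 ± 88.3 in K/VP.5 and 451 ± 49.0 in K562 (SD, n = 4 each). Its difference in edit-3 versus K/VP.5 was -0.45 (adjusted p = 0.041, edgeR), a call lost on leaving out replicate 1 or 2 of edit-3, replicate 1, 3 or 4 of K/VP.5, or replicate 1 of K562. Neither K/VP.5 versus K562 (0.19, adjusted p = 0.34) nor edit-3 versus K562 (-0.25, adjusted p = 0.19) passed. GATA2 reads per GATA1 read were 1.90 ± 0.31 in edit-3, 2.66 ± 0.57 in K/VP.5 and 1.65 ± 0.28 in K562.

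The 3 other parts of the GATA1 complex moved in different ways. TAL1 (chr1:47216290-47232220, minus strand), the basic helix-loop-helix protein that binds the E-box, had 213, 155, 177 and 170 CPM in edit-3, 148, 149, 142 and 106 in K/VP.5, and 127, 118, 123 and 78.8 in K562. The edit-3 libraries were the highest and did not overlap with either other line, whereas those of K/VP.5 and K562 overlapped, with replicate 4 the lowest in both. TAL1 was higher in edit-3 than in K562 (log2 fold change 0.68, SE 0.15, adjusted p = 0.0028, edgeR). In edit-3 versus K/VP.5 it reached 0.39 (SE 0.15, adjusted p = 0.080), and it passed without K562 replicate 4 (0.39, adjusted p = 0.018). In K/VP.5 versus K562 it was 0.28 (SE 0.15, adjusted p = 0.17). With the replicate number as a block, it was 0.29 (adjusted p = 0.031). That block pairs these lines' libraries but also groups those of edit-3, for which no pairing was taken. The opposite-strand gene AL135960.1 overlaps TAL1, had 4.28% to 4.54% as many reads in each line, and showed 0.73 in edit-3 versus K562 (adjusted p = 0.0013). The 2 genes were counted separately, and their overlap was taken from whole gene spans, not exons. A strand setting of the counting is not stated, so reads from any shared exonic stretch are uncertain.

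LMO2 (chr11:33858576-33892289, minus strand) is a LIM-only protein that binds no DNA and bridges TAL1 to LDB1. It had 104, 98.3, 102 and 114 CPM in edit-3, 160, 145, 172 and 165 in K/VP.5, and 180, 223, 220 and 218 in K562. The 3 lines formed 3 separate levels with no overlap, and K562 replicate 1 stood below the other K562 libraries. LMO2 was lower in edit-3 than in K/VP.5 by -0.62 (SE 0.084, adjusted p = 7.2e-05, edgeR), lower in K/VP.5 than in K562 by -0.39 (SE 0.084, adjusted p = 0.0020), and lower in edit-3 than in K562 by -1.01 (SE 0.085, adjusted p = 2.3e-07). Its 20 nearest measured genes had medians of -0.03, -0.13 and -0.08 in the same comparisons. The opposite-strand AC132216.1, which overlaps LMO2, had 0.466, 2.35 and 3.84 CPM in edit-3, K/VP.5 and K562, no more than 1.83% of the LMO2 reads. The 2 genes whose log2 CPM followed LMO2 most closely over the 12 libraries, among 12901 protein-coding genes, were RELL2 (Pearson r = 0.975) and USP20 (r = 0.974), a ubiquitin-specific protease at 195 CPM in edit-3, 335 in K/VP.5 and 456 in K562. All 12 points share the 3 line levels, so r describes the pattern over lines.

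Because TAL1 was highest where LMO2 was lowest, their ratio set edit-3 apart. TAL1 had 1.72 ± 0.25 reads per LMO2 read in edit-3 (1.48 to 2.05), 0.853 ± 0.17 in K/VP.5 (0.638 to 1.03) and 0.539 ± 0.14 in K562 (0.362 to 0.707). The edit-3 libraries lay apart from both other lines, and those of K/VP.5 and K562 overlapped. The ratio carries the lengths of both genes and is a description without a test.

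LDB1 (chr10:102107560-102120453, minus strand) is the self-associating protein that holds enhancer and promoter together. It had 158, 107, 157 and 150 CPM in edit-3, 150, 157, 142 and 156 in K/VP.5, and 266, 278, 277 and 246 in K562. The 4 K562 libraries stood far above the rest, and edit-3 replicate 2 was the lowest of all. LDB1 was lower in K/VP.5 than in K562 (log2 fold change -0.82, SE 0.10, adjusted p = 2.0e-05, edgeR) and in edit-3 than in K562 (-0.90, SE 0.11, adjusted p = 6.9e-06). Edit-3 and K/VP.5 differed by -0.08 (95% interval -0.31 to 0.14, adjusted p = 0.62), and by 0.033 without edit-3 replicate 2. Genes next to LDB1 were lower as well: of its 20 nearest measured genes, 17 had the same sign and 13 were called lower in K/VP.5 versus K562 (median -0.50), and 16 and 15 in edit-3 versus K562 (median -0.61).

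Of 11 further partners of the complex, 10 were tested, and 10%, 30% and 20% of these were called in edit-3 versus K/VP.5, K/VP.5 versus K562 and edit-3 versus K562, beside 23.6%, 36.6% and 39.2% of all genes. In K/VP.5 versus K562 none was higher and 3 were lower: LYL1, a TAL1 relative, at 114 ± 7.86 CPM in K/VP.5 and 214 ± 18.1 in K562 (log2 fold change -0.90, adjusted p = 4.1e-07), CBFA2T3, the corepressor ETO2 (-0.51, adjusted p = 0.00048), and SSBP3, which stabilises LDB1 (-0.23, adjusted p = 0.025). The SSBP3 call was lost without any 1 of K/VP.5 replicates 1 to 3 or K562 replicates 1 and 3. In edit-3 versus K/VP.5 CBFA2T3 alone was called, at 0.32 (adjusted p = 0.020, 202 ± 11.9 CPM in edit-3 and 162 ± 23.1 in K/VP.5), a call lost on leaving out replicate 4 of edit-3 or replicate 1 or 2 of K/VP.5. In edit-3 versus K562 LYL1 (-0.87, adjusted p = 5.2e-07) and TCF12, an E-protein (-0.36, adjusted p = 0.0071), were lower. The list's medians were -0.05, -0.09 and -0.15 in edit-3 versus K/VP.5, K/VP.5 versus K562 and edit-3 versus K562.

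KLF1 (chr19:12884422-12887199, minus strand), the Krüppel-like factor of adult globin expression, did not pass in any comparison. It had 195, 114, 169 and 150 CPM in edit-3, 187, 178, 183 and 151 in K/VP.5, and 195, 203, 212 and 128 in K562. The lines overlapped, and the lowest libraries were edit-3 replicate 2 and K562 replicate 4. The log2 fold changes were -0.16 in edit-3 versus K/VP.5 (95% interval -0.52 to 0.21), -0.08 in K/VP.5 versus K562 (-0.44 to 0.29) and -0.23 in edit-3 versus K562 (-0.60 to 0.13). Without K562 replicate 4, edit-3 versus K562 reached -0.38 (adjusted p = 0.044, edgeR).

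NFE2 (chr12:54292111-54301121, minus strand), the p45 subunit of NF-E2 that serves globin and platelet genes, gave the clearest split between K562 and both derived lines. It had 162, 166, 179 and 197 CPM in edit-3, 159, 152, 163 and 186 in K/VP.5, and 307, 359, 348 and 419 in K562. The lowest K562 library was far above the highest of the other 8, and those of edit-3 and K/VP.5 overlapped. NFE2 was lower in K/VP.5 than in K562 by -1.12 (SE 0.099, adjusted p = 4.7e-07, edgeR) and in edit-3 than in K562 by -1.03 (SE 0.099, adjusted p = 9.8e-07). Edit-3 and K/VP.5 differed by 0.09 (95% interval -0.12 to 0.30, adjusted p = 0.55). Its 20 nearest measured genes had a median of 0.03 in K/VP.5 versus K562. Over the 12 libraries NFE2 was followed most closely by FUZ (r = 0.993) and TMEM80 (r = 0.992).

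NFE2 acts as a dimer with a small MAF protein. MAFK, one such partner, was higher where NFE2 was lower: 30.8 ± 7.79 CPM in edit-3, 37 ± 2.98 in K/VP.5 and 18.0 ± 3.36 in K562 (SD, n = 4 each), with log2 fold changes of 1.04 in K/VP.5 versus K562 (adjusted p = 0.00036, edgeR) and 0.77 in edit-3 versus K562 (adjusted p = 0.0031). NFE2 reads per MAFK read were 6.04 ± 1.73 in edit-3, 4.5 ± 0.69 in K/VP.5 and 20.9 ± 7.37 in K562. All 8 small MAF and cap'n'collar genes of the list were tested, with 2 higher and 0 lower in edit-3 versus K/VP.5, 2 and 0 in K/VP.5 versus K562, and 3 and 0 in edit-3 versus K562. BACH2, a repressor of the same family, was at 26.9 ± 10.8 CPM in edit-3 and 1.79 ± 0.289 in K/VP.5 (3.91, adjusted p = 6.4e-05), and at 1.30 ± 1.01 in K562. NFE2L3 was higher in K/VP.5 than in K562 (0.41, adjusted p = 0.012).

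GFI1B (chr9:132944000-132991687, plus strand) is a repressor that recruits the LSD1-CoREST complex in erythroid and megakaryocytic cells. It had 83.6, 75.7, 75.8 and 81.2 CPM in edit-3, 57.3, 68.7, 53.2 and 56.5 in K/VP.5, and 77.3, 91.9, 81.9 and 72.1 in K562. K/VP.5 was below both other lines in every library, and edit-3 and K562 overlapped. GFI1B was lower in K/VP.5 than in K562 (-0.46, SE 0.093, adjusted p = 0.0012, edgeR) and higher in edit-3 than in K/VP.5 (0.42, SE 0.093, adjusted p = 0.0036). Edit-3 and K562 differed by -0.03 (95% interval -0.23 to 0.17, adjusted p = 0.82), with the sign turning under upper-quartile scaling (0.021). TSC1, on the opposite strand, overlaps GFI1B and had 66.8, 56.3 and 54.7 CPM in edit-3, K/VP.5 and K562, which is 84.3%, 95.8% and 67.2% of the GFI1B reads. TSC1 itself differed by 0.25 in edit-3 versus K/VP.5 (adjusted p = 0.0098) and by 0.04 in K/VP.5 versus K562 (adjusted p = 0.64), and its part in the GFI1B counts was not tested. The relative GFI1 was at 2.53 ± 0.884, 2.14 ± 0.222 and 1.48 ± 0.426 CPM in edit-3, K/VP.5 and K562. It passed in edit-3 versus K562 only (0.78, adjusted p = 0.022), a call lost without edit-3 replicate 2 or K562 replicate 1, 2 or 3.

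GFI1B, TAL1, BCL11A and GATA1 share corepressors, and all 20 on the list were tested. In edit-3 versus K/VP.5, 2 were higher and 3 lower, in K/VP.5 versus K562 1 and 4, and in edit-3 versus K562 4 and 6. These are 25%, 25% and 50% of the list, beside 23.6%, 36.6% and 39.2% of all genes. RCOR1, the CoREST subunit that binds LSD1, was at 241 ± 40.6 CPM in edit-3 and 156 ± 15.9 in K/VP.5 (0.63, adjusted p = 0.0013, edgeR). RCOR2, its relative, was at 18.7 ± 1.73 CPM in K/VP.5 and 4.75 ± 0.997 in K562 (1.98, adjusted p = 8.9e-07). In the NuRD complex, MTA1 was higher in edit-3 than in K/VP.5 (0.49, adjusted p = 0.00040), CHD3 was lower (-0.49, adjusted p = 0.00011), and the deacetylase HDAC2 was lower in K/VP.5 than in K562 (-0.34, adjusted p = 0.0025). Of 6 coactivators, CREBBP, a histone acetyltransferase that modifies GATA1, was lower in K/VP.5 than in K562 (-0.55, adjusted p = 2.4e-05) and higher in edit-3 than in K/VP.5 (0.53, adjusted p = 7.4e-05), with 153 ± 8.52, 106 ± 1.23 and 155 ± 13.3 CPM in edit-3, K/VP.5 and K562. MED1, the Mediator subunit bound by GATA1, was lower in K/VP.5 than in K562 (-0.40, adjusted p = 0.00048) and in edit-3 than in K562 (-0.42, adjusted p = 0.00023). These were the only coactivators called, with 1 higher and 0 lower, 0 and 2, and 0 and 1 in the 3 comparisons.

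BCL11A (chr2:60450520-60555154, minus strand) silences fetal globin in adult erythroid cells. It had 13, 12, 13 and 15 reads in edit-3, 18, 8, 18 and 29 in K/VP.5, and 3, 6, 1 and 8 in K562, or 0.44 ± 0.031, 0.56 ± 0.21 and 0.16 ± 0.12 CPM. Every edit-3 library stood above every K562 library, whereas the lowest K/VP.5 library lay below the highest K562 library in CPM, each with 8 reads. It passed the filter on low counts through the edit-3 and K/VP.5 libraries, where it is higher, so its call is no independent sign of a change. BCL11A was higher in K/VP.5 than in K562 (1.78, SE 0.44, adjusted p = 0.0053, edgeR) and in edit-3 than in K562 (1.42, SE 0.46, adjusted p = 0.024). The edit-3 call was lost without edit-3 replicate 4 or K562 replicate 1 or 3. Edit-3 and K/VP.5 differed by -0.36 (95% interval -1.16 to 0.43). With 53, 73 and 18 reads over the 4 libraries of edit-3, K/VP.5 and K562, the level is close to the limit of this depth. FAM161A (r = 0.926) and PLEKHG5 (r = 0.925) followed it most closely over the 12 libraries.

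Among 14 genes of fetal globin repression and BCL11A control, 0 were higher and 4 lower in edit-3 versus K/VP.5, 2 and 4 in K/VP.5 versus K562, and 0 and 2 in edit-3 versus K562. LIN28A, an RNA-binding protein of fetal-type gene expression, was at 0.434 ± 0.124 CPM in edit-3, 166 ± 16 in K/VP.5 and 0.385 ± 0.176 in K562, with -8.56 in edit-3 versus K/VP.5 (adjusted p = 1.9e-12) and 8.72 in K/VP.5 versus K562 (adjusted p = 2.8e-13, edgeR). Its relative LIN28B, which represses BCL11A, stood at 196 ± 27.0, 236 ± 22.5 and 209 ± 40.2 CPM in edit-3, K/VP.5 and K562 and did not pass in any comparison, although it did in edit-3 versus K/VP.5 without edit-3 replicate 1 (-0.38, adjusted p = 0.042). IGF2BP1 (941 ± 52.9, 971 ± 47.6 and 912 ± 83.4 CPM) did not pass either. SOX6, which helps BCL11A silence fetal globin, was lower in edit-3 (0.846 ± 0.288 CPM) than in K/VP.5 (6.05 ± 1.1; -2.84, adjusted p = 2.8e-07) and lower in K/VP.5 than in K562 (9.57 ± 1.34; -0.66, adjusted p = 0.013). NR2C2, a nuclear receptor that represses fetal globin, was lower in K/VP.5 than in K562 (-0.33, adjusted p = 0.0022). The fetal globin gene HBG1 was at 168 ± 33.5 CPM in edit-3, 163 ± 47.7 in K/VP.5 and 94.2 ± 2.75 in K562 (K/VP.5 versus K562 0.79, adjusted p = 0.0037), whereas HBG2 was at 77.0 ± 16.4, 66.7 ± 6.74 and 72.9 ± 6.81 CPM (K/VP.5 versus K562 -0.13, adjusted p = 0.49). Both values are uncertain, because the 2 genes are near-identical and can share reads.

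MYB (chr6:135181315-135219173, plus strand) keeps erythroid progenitors cycling and declines as they mature. It had 265, 415, 264 and 269 CPM in edit-3, 216, 216, 250 and 229 in K/VP.5, and 311, 408, 330 and 345 in K562. K/VP.5 was the low line, and edit-3 replicate 2 stood far above the other 3 edit-3 libraries, above every K562 library. MYB was lower in K/VP.5 than in K562 (-0.61, SE 0.14, adjusted p = 0.0028, edgeR). It was higher in edit-3 than in K/VP.5 (0.41, SE 0.14, adjusted p = 0.043), but by 0.22 without edit-3 replicate 2 (adjusted p = 0.092), and the call was also lost without any 1 K/VP.5 library or K562 replicate 3. Edit-3 versus K562 gave -0.20 (adjusted p = 0.28), and -0.39 without edit-3 replicate 2 (adjusted p = 0.0033). Edit-3 replicate 2 was also the lowest edit-3 library for 8 of the 10 factors, all but MYB and NFE2. For GATA1, LMO2, GFI1B and BCL11A it lay only -0.11, -0.09, -0.06 and -0.10 from the line mean of log2 CPM. How often it is the lowest over all genes was not computed. Its mitochondrial read share was 1.22%, beside 0.822%, 0.831% and 1.21% in edit-3 replicates 1, 3 and 4, and the part of this in the result was not tested.

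**Figure D4:**
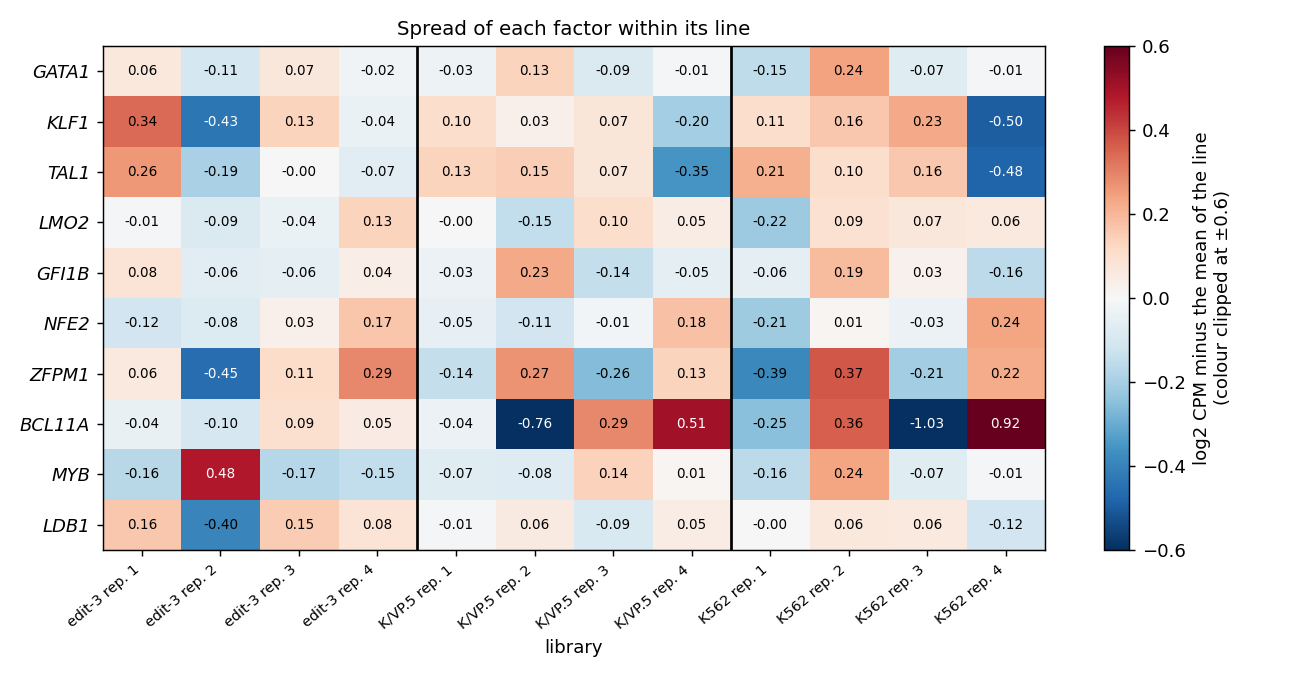
Heat map of the log2 CPM of each factor (rows) minus the mean of its line, in each library (columns: edit-3, K/VP.5 and K562, replicates 1 to 4), with the value written in each cell and the colour scale ending at ±0.6. Edit-3 replicate 2 stands out with MYB at 0.48 and KLF1, ZFPM1 and LDB1 at -0.43, -0.45 and -0.40, and K562 replicate 4 with KLF1 at -0.50 and TAL1 at -0.48.

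The relative MYBL2, a regulator of the dividing cell, was at 243 ± 22.7, 232 ± 15.4 and 219 ± 10.5 CPM in edit-3, K/VP.5 and K562 and did not pass in any comparison, although it did in edit-3 versus K562 without edit-3 replicate 2 (0.21, adjusted p = 0.023). Of 7 MYB target genes 6 were tested, with 1 higher and 2 lower in edit-3 versus K/VP.5, 3 and 2 in K/VP.5 versus K562, and 2 and 1 in edit-3 versus K562. CDK6, a kinase of the cell cycle, was at 194 ± 25.8 CPM in edit-3, 459 ± 36.7 in K/VP.5 and 198 ± 27.7 in K562 (edit-3 versus K/VP.5 -1.24, adjusted p = 1.2e-06, K/VP.5 versus K562 1.21, adjusted p = 7.3e-07, edgeR). KIT, the stem cell factor receptor, went the other way at low levels, with 8.83 ± 2.28, 0.952 ± 0.247 and 4.01 ± 1.01 CPM (3.2 and -2.07, adjusted p = 2.5e-07 and 1.1e-05). BCL2, which protects from apoptosis, was lower in K/VP.5 (18.1 ± 1.69 CPM) than in K562 (32.4 ± 4.24; -0.84, adjusted p = 2.6e-05). ADA, adenosine deaminase, was higher in K/VP.5 than in K562 (1.65, adjusted p = 7.5e-07).

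Other members of the same protein families were also read. Of 24 relatives 19 were tested, with 4 higher and 1 lower in edit-3 versus K/VP.5, 8 and 2 in K/VP.5 versus K562, and 10 and 1 in edit-3 versus K562. KLF13, a CACCC-box factor, was at 115 ± 7.70 CPM in edit-3, 92.4 ± 13.5 in K/VP.5 and 19.0 ± 6.92 in K562 (K/VP.5 versus K562 2.28, adjusted p = 3.4e-06, edgeR). KLF6 was at 86.0 ± 32.1 CPM in edit-3 and 29.9 ± 8.95 in K/VP.5 (1.52, adjusted p = 0.0049). The GATA factors of heart and gut were low but higher in the derived lines: GATA6 had 7.34 ± 1.07, 7.91 ± 0.875 and 0.684 ± 0.238 CPM in edit-3, K/VP.5 and K562, and GATA4 had 564, 217 and 4 reads in all.

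The genes that GATA1 serves did not move in 1 direction. Of 32 GATA1 targets 31 were tested, with 7 higher and 9 lower in edit-3 versus K/VP.5, 11 and 4 in K/VP.5 versus K562, and 12 and 6 in edit-3 versus K562. These are 51.6%, 48.4% and 58.1% of those tested. Over all genes, 12.9% were higher and 10.6% lower in edit-3 versus K/VP.5, 18.3% and 18.3% in K/VP.5 versus K562, and 20.6% and 18.6% in edit-3 versus K562. The targets' medians were 0.04, 0.09 and 0.21, beside GATA1's own 0.02, -0.51 and -0.48. In K/VP.5 versus K562, XK, the carrier of the Kx blood group antigen, had 142 ± 5.76 CPM in K/VP.5 and 10.1 ± 1.64 in K562 (3.81, adjusted p = 1.7e-11, edgeR), and CD36, a fatty acid receptor, had 11.9 ± 1.52 in K/VP.5 and 0.302 ± 0.042 in K562 (5.28, adjusted p = 2.9e-10). SLC4A1, the band 3 anion exchanger, fell instead, with 2.78 ± 0.879 CPM in K/VP.5 and 26.6 ± 5.0 in K562 (-3.26, adjusted p = 3.7e-08), and was at 10.6 ± 1.95 in edit-3 (edit-3 versus K/VP.5 1.92, adjusted p = 1.4e-05). Edit-3 was lower than K/VP.5 for RHAG, the Rh-associated glycoprotein (-1.04, adjusted p = 3.9e-07), and CD36 (-3.42, adjusted p = 1.2e-08).

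Of 21 KLF1 targets 20 were tested, with 9 higher and 1 lower in edit-3 versus K/VP.5, 7 and 3 in K/VP.5 versus K562, and 12 and 2 in edit-3 versus K562, while KLF1 itself passed in none. These are 50%, 50% and 70% of those tested, beside 23.6%, 36.6% and 39.2% of all genes. Some of these targets also stand on other lists described here, so the lists are not separate sets of genes. Their medians were 0.21, 0.15 and 0.32. PKLR, the red cell pyruvate kinase, had 257 ± 34.4 CPM in edit-3, 153 ± 7.55 in K/VP.5 and 93.9 ± 12.8 in K562 (edit-3 versus K562 1.46, adjusted p = 6.6e-08, edgeR). BCAM, the Lutheran blood group protein, was at 16.9 ± 2.33 CPM in K/VP.5 and 1.51 ± 0.868 in K562 (3.5, adjusted p = 1.3e-06), and ADD2, a membrane skeleton protein, at 77.8 ± 8.06 and 21.6 ± 5.72 (1.85, adjusted p = 2.5e-06). CD44, an adhesion receptor, was at 3.38 ± 1.54 CPM in edit-3 (51 to 176 reads per library) and 0.095 ± 0.032 in K/VP.5 (2 to 4 reads). Its log2 fold change was 5.12 (adjusted p = 7.0e-07, edgeR). CD44 passed the filter on low counts through the edit-3 libraries, where it is high, so this call is no independent sign of a change.

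**Figure D5:**
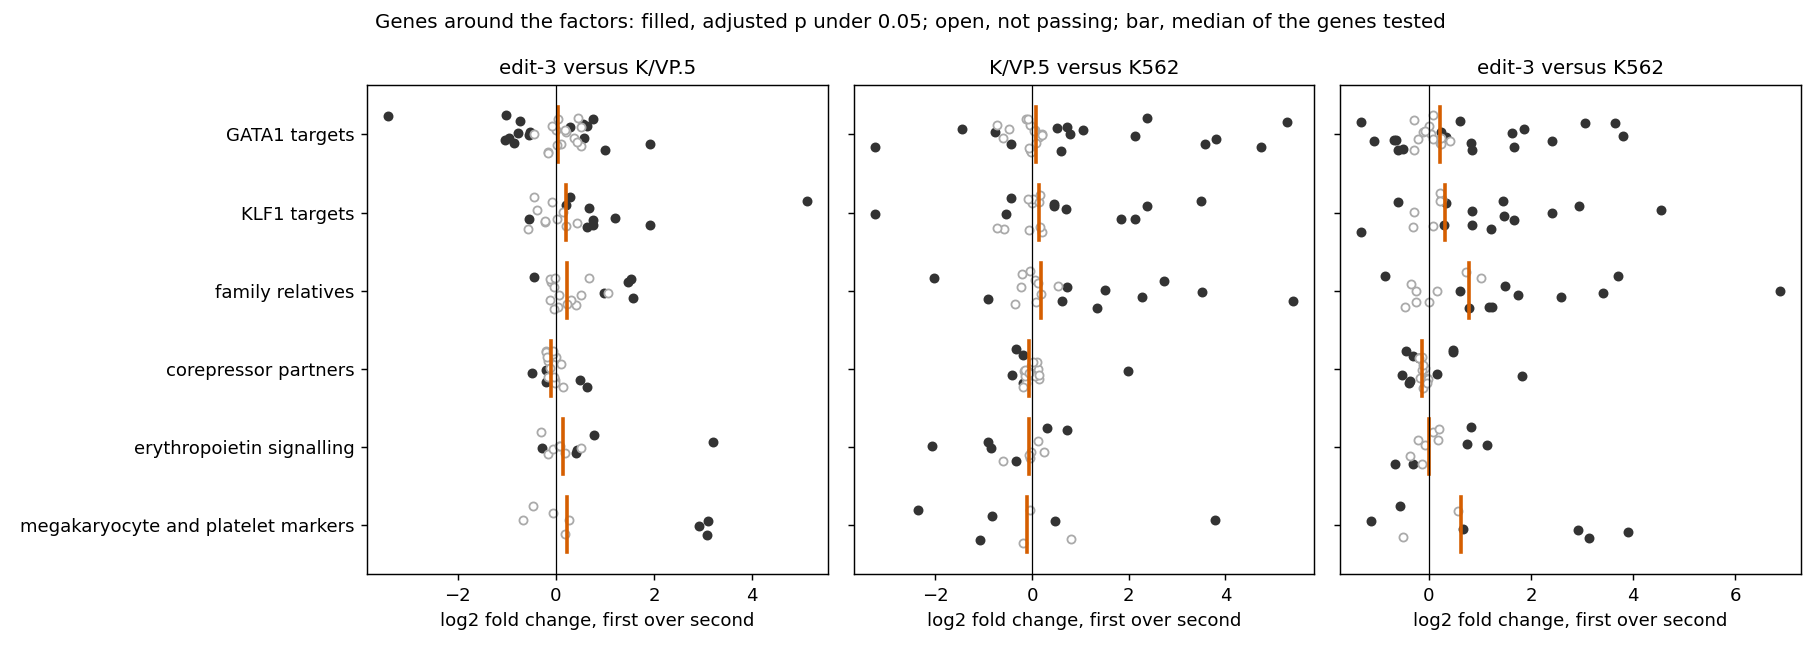
Log2 fold changes (x axis, first line over second) of the tested genes of 6 lists around the factors in edit-3 versus K/VP.5, K/VP.5 versus K562 and edit-3 versus K562, 1 point per gene, filled where the adjusted p was under 0.05, with a bar at the list's median. Filled points lie on both sides of 0 for the GATA1 targets, whose medians are 0.04, 0.09 and 0.21, and for the KLF1 targets, whose medians are 0.21, 0.15 and 0.32.

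Erythropoietin signalling, which works beside these factors, held 12 genes, all tested, with 4 higher and 1 lower in edit-3 versus K/VP.5, 2 and 4 in K/VP.5 versus K562, and 3 and 2 in edit-3 versus K562. STAT5A, a transcription factor activated by the receptor, was lower in K/VP.5 than in K562 (589 ± 39.3 CPM; -0.85, adjusted p = 7.3e-07, edgeR), and CISH, a feedback inhibitor, was higher (134 ± 14.9 CPM in K/VP.5 and 80.9 ± 3.74 in K562; 0.73, adjusted p = 7.4e-06). JAK2, the receptor's kinase, was higher in edit-3 than in K/VP.5 (0.44, adjusted p = 0.0021). Of 17 megakaryocyte genes 8 were tested, with 3 higher and 0 lower, 2 and 3, and 4 and 2 in the same order. The integrin genes ITGA2B and ITGB3 had 13.8 ± 4.81 and 3.84 ± 1.81 CPM in edit-3, against 1.60 ± 0.623 and 0.446 ± 0.113 in K/VP.5 (3.09 and 3.1, adjusted p = 0.00089 and 3.8e-05). TUBB1, the platelet tubulin, was lower in K/VP.5 (4.44 ± 0.628 CPM) than in K562 (9.44 ± 1.77 CPM, log2 fold change -1.09, adjusted p = 0.00010, edgeR). TBXAS1, of the same list, went the other way in its means, with 6.19 ± 0.945 CPM in K/VP.5 and 4.44 ± 0.961 in K562. SPI1 (PU.1), the myeloid factor that GATA1 antagonises, was at 5.16 ± 2.80, 1.87 ± 0.689 and 14.7 ± 7.03 CPM in edit-3, K/VP.5 and K562 (K/VP.5 versus K562 -2.98, adjusted p = 0.00027). Granulocyte and monocyte genes had 3 higher and 0 lower, 2 and 2, and 3 and 1 of 8 tested, lymphoid genes 2 and 1, 1 and 2, and 1 and 0 of 6, and the 8 K562 identity genes 0 and 2, 2 and 1, and 2 and 3. As shares of the genes tested in edit-3 versus K/VP.5, K/VP.5 versus K562 and edit-3 versus K562, where 23.6%, 36.6% and 39.2% of all genes were called, the calls made up 16.7%, 33.3% and 16.7% of the coactivators, and 25%, 25% and 37.5% of the small MAF and cap'n'collar genes. They made up 28.6%, 42.9% and 14.3% of the genes of fetal globin repression, 50%, 83.3% and 50% of the MYB targets, and 26.3%, 52.6% and 57.9% of the family relatives. They made up 41.7%, 50% and 41.7% of the erythropoietin genes and 37.5%, 62.5% and 75% of the 8 megakaryocyte genes tested.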

How the data were processed

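DNase-treated RNA was made into libraries by standard Illumina methods, per the labels' protocols, and whether poly(A) RNA was selected was not given in the sources used here. The deposited values are raw counts, which the authors gave in 1 table as whole reads per gene with no normalization. HISAT2 2.1.0, Subread 1.5.1, featureCounts and the GRCh38 build are named per the submitters' processing notes. The annotation release, the strand setting and the handling of multiply mapped reads were not given in the sources used here. Counts of genes on opposite strands are therefore uncertain where their exons overlap.

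From these counts, R 4.3.3 with edgeR 4.0.16 removed genes with too few reads (filterByExpr by line), which left 18286 of 58395 genes with 99.9% of reads, computed TMM-scaled CPM, and fitted 1 coefficient per line to all 12 libraries. Each of the 3 comparisons used the robust quasi-likelihood test with Benjamini-Hochberg adjustment over the 18286 genes and a threshold of 0.05. SE is the log2 fold change over the square root of F. Lines came from source names and replicate numbers from titles. GENCODE v29, which matched 58275 of 58395 gene IDs, gave positions and exonic lengths for RPKM, and RefSeq promoter windows came from GRCh38.p14. The procedure was tested on simulated counts.

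The 10 genes and the gene lists were chosen with earlier results of these data known, and so were the tests and alternatives. Lists are described by counts and medians, with no test of a list. Named genes were the 10 factors, up to 4 called genes per list and comparison with the largest change and at least 1 CPM in 1 line, GATA2, MYBL2, GFI1, LIN28A, LIN28B, IGF2BP1, TOP2A, and, for factors changed at least 2-fold, the 2 protein-coding genes most correlated with each over 12 libraries. Overlapping genes, marker genes and HBG2 are named besides, and some genes that the rule names are not reported here.

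Every pair of libraries within a line was compared on genes reaching 20 reads, and chi-square per degree of freedom was 6.68 to 67.4, so none looked like a copy of another. Same-numbered K/VP.5 and K562 libraries deviated together from their line means (r = 0.31, 0.15, 0.14 and 0.51), so their numbers were taken as pairs, from the data and not the labels. For edit-3 the values ran from -0.11 to 0.47 and no pairing was taken. The alternatives were DESeq2 1.42.0, other scalings, 2 other filters, fits of 2 lines only, the replicate block, leaving out each library, and 1 added after seeing the data.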

Additional observations from a re-analysis of the deposited data

Results flagged for a closer look

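Within lines, 3 of 30 sets of 4 libraries (10 genes in 3 lines) held a library whose distance from its nearest neighbour took up more of the whole range than Dixon's 95% critical value. Chance gives about 1 set in 20 when sets are independent and normal. These sets reuse the same 12 libraries, and MYB and LDB1 were both flagged in edit-3 replicate 2, so no excess can be read from the count. LMO2 in K562 replicate 1 was at 180 CPM, with the other 3 K562 libraries at 218 to 223, a gap of 0.874 of the range. MYB in edit-3 replicate 2 was at 415 CPM, with the others at 264 to 269, a gap of 0.972. LDB1 in edit-3 replicate 2 was at 107 CPM, with the others at 150 to 158, a gap of 0.832.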

How the results depend on the processing

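The counts of changed factors stayed within 1.5 times the reported count under all alternatives run, except that leaving out single libraries gave 2 to 5 changed factors in edit-3 versus K/VP.5 against 4, and the cause was not tested. All 8 calls in K/VP.5 versus K562 held wherever the gene was tested. BCL11A was not tested in that comparison when only those 2 lines were fitted or under the stricter filter. With the replicate block, K/VP.5 versus K562 gave 7681 called genes instead of 6688, and 9 factors instead of 8. With the block, which for edit-3 rests on a shared number only, 5494 genes and 5 factors changed in edit-3 versus K/VP.5 and 8121 genes and 6 factors in edit-3 versus K562. Of the edit-3 libraries, 1 and 4 correlated best with their own number, and 2 and 3 did not.

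Signs turned for 7 differences that had not passed the test. Leaving out single libraries gave -0.0083 to 0.057 for GATA1 and -0.14 to 0.033 for LDB1 in edit-3 versus K/VP.5 and -0.085 to 0.020 for GFI1B in edit-3 versus K562, where upper-quartile scaling gave 0.021. Without edit-3 replicate 2 and K562 replicate 4 together, a choice made after seeing the data, LDB1 (0.034) and GFI1 (-0.013) in edit-3 versus K/VP.5 and LIN28A in edit-3 versus K562 (-0.10) turned sign. Leaving out single libraries gave -0.014 to 0.39 for GFI1 in edit-3 versus K/VP.5 (0.23 with all libraries), and in edit-3 versus K562 -0.0060 to 0.096 for IGF2BP1 (0.04), -0.060 to 0.50 for LIN28A (0.16) and -0.20 to 0.0068 for LIN28B (-0.10). The TAL1 difference in edit-3 versus K/VP.5 passed with only those lines (0.38, adjusted p = 0.043) and with the block (0.41, adjusted p = 0.0077), and MYB missed with only those lines (0.40, adjusted p = 0.052), all by edgeR. BCL11A, with 18 to 73 reads per line, is the factor that depth limits most.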
